A study of Mus musculus with 6 samples.

Results

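Forelimb and hindlimb cells of wild-type mouse embryos were compared within each class of limb bud cells. Limb buds of stage E11.5 were dissected, dissociated with trypsin and profiled by droplet single-cell RNA-seq, which counts unique molecular identifiers (UMIs) at the 3′ end of transcripts. The wild-type libraries compared were the G4 forelimb and the G4 hindlimb, 1 library a side, from embryos of the G4 background, a hybrid embryonic stem cell line of 129sv and C57BL/6 origin. Inv1 embryos, which are of the same background and homozygous for an inversion at the Lbx1/Fgf8 locus that breaks Fbxw4, gave another forelimb and another hindlimb library and so a pair that shares no sample with the G4 pair. Hindlimbs of C57BL/6 wild-type embryos and of C57BL/6 Dup embryos, homozygous for a tandem duplication at that locus, gave 2 further hindlimb levels. Homozygous Inv1 limbs are underdeveloped, which limits them as a stand-in for a wild-type pair. The edited lines came from picked stem cell clones, and the number of embryos per library is not stated in the labels or methods.

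Members were all cells of the G4 forelimb and G4 hindlimb in those deposited classes that held 10 or more cells in both libraries. With over 2000 detected genes required, 2766 of 2988 forelimb cells and 5606 of 6057 hindlimb cells were kept, with totals of 26.6 M and 57 M UMIs. The 7 classes used held 2760 forelimb and 5602 hindlimb cells, in all 8362 of the 24891 cells kept in the 6 libraries (26486 cells were deposited). Neuronal cells, 6 in the forelimb and 4 in the hindlimb, were left out. As each limb of a genotype was 1 library, no test was made within the G4 pair, limb and library cannot be told apart there, and the Inv1 pair is set beside it as values only. Ranges in brackets are exact 95% intervals (Poisson for levels, Clopper-Pearson for shares, conditional binomial for ratios) that cover counting error only.

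Fore- and hindlimb buds are built from the same cell types and pathways but carry different transcription factors in their mesenchyme, the tissue that forms cartilage, tendon and connective tissue. Tbx5 is required for forelimb outgrowth, whereas Pitx1 acts upstream of the related gene Tbx4 in the hindlimb and shapes hindlimb structures. Hox genes of 4 clusters set position along the body and the limb, and the posterior HoxC genes are known for expression in hindlimbs and not forelimbs. Limb muscle has another origin: its precursors migrate from the somites, and myogenesis passes from Pax3 through Myf5 and Myod1 to Myog and contractile protein genes. In the mouse the forelimb bud forms ahead of the hindlimb bud.

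The G4 forelimb library had a lower ribosomal share than the G4 hindlimb in each of the 7 classes. Ribosomal protein genes took 18.7% of its UMIs against 23.5% in the G4 hindlimb and 22.3% and 23.0% in the Inv1 forelimb and hindlimb (Dup stood at 21.1% and C57BL/6 wild type at 20.2%, the latter below the G4 forelimb in ectoderm, AER and keratinocytes). It held a median of 3191.5 genes at 8411.5 UMIs per cell, where the G4 hindlimb held 2978 genes at 9110.5 UMIs and the Inv1 forelimb 3309 genes at 10102 UMIs. Lars2, a mitochondrial leucyl-tRNA synthetase gene, was at 246 CPM (UMIs scaled to a common library total) against 25.7 to 101 CPM in the other 5 libraries. Malat1, a nuclear non-coding RNA, was higher in both forelimbs (17843 and 18271 CPM in G4 and Inv1) than in the 4 hindlimbs (12324 to 15164 CPM). The forelimb and hindlimb of G4 shared 2 cell barcodes.

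All classes carried their defining markers. The summed level of Prrx1, Prrx2, Twist1 and Pdgfra was 1582 CPM in forelimb and 1113 CPM in hindlimb mesenchyme, where that of 4 muscle markers was 3.93 and 1.21 CPM. In muscle, Pax3, Lbx1, Myf5 and Myod1 summed to 682 and 609 CPM, with mesenchyme markers at 121 and 89.8 CPM. The AER, the distal epithelial ridge that secretes FGFs, held its 4 markers at 3469 CPM in the forelimb and 8121 CPM in the hindlimb, and mesenchyme markers at 509 and 193 CPM.

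The classes took like shares of both limbs. Mesenchyme made up 92.9% of forelimb cells (2570 cells) and 92.6% of hindlimb cells (5191), and muscle 4.05% (112 cells) and 3.94% (221). The forelimb-to-hindlimb ratio of shares was 1.00 (0.957 to 1.05) for mesenchyme and 1.03 (0.811 to 1.30) for muscle. The small classes held 24 and 64 cells of dorso-ventral ectoderm, 10 and 33 of AER, 15 and 29 of keratinocytes, 16 and 45 of endothelium and 13 and 19 immune cells. Their ratios ran from 0.614 (AER, 0.270 to 1.28) to 1.39 (immune, 0.629 to 2.96), and every interval included 1. Differences in the shares of the small classes were thus not detectable at this depth.

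Limb identity genes separated the mesenchyme of the 6 libraries by limb. Tbx5, at chr5:120284672-120335227 (plus strand, build NCBIM37), was at 117 CPM in the forelimb of G4 and 81.3 CPM in that of Inv1, and at 0.435, 0.330, 0.628 and 1.07 CPM in hindlimbs (in the order G4, Inv1, C57BL/6 wild type, Dup, kept hereafter). Its 2743 forelimb and 22 hindlimb UMIs gave a G4 ratio of 269 (177 to 430). Pitx1, at chr13:55926415-55937553 (minus strand), was at 0.427 and 0.839 CPM in the G4 and Inv1 forelimbs and at 216, 224, 333 and 308 CPM in the same order of hindlimbs, and was 505 times higher in the G4 hindlimb (275 to 1054). No forelimb reached a hindlimb in either gene.

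Tbx4, at chr11:85699924-85729599 (plus strand), was the least divided of these genes. It was at 8.33 and 7.94 CPM in the G4 and Inv1 forelimbs and at 62.2, 52.4, 54.3 and 37.6 CPM in the hindlimbs, a G4 difference of 7.46-fold (6.45 to 8.67). Hoxc10, at chr15:102797227-102802324 (plus strand), had 0 UMIs in G4 forelimb mesenchyme and 2495 in the hindlimb (49.4 CPM), and with the forelimb set to a floor of 3 counts was at least 385-fold higher. In the Inv1 pair it had 1 and 1745 UMIs.

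Single cells showed the same division. A Tbx5 UMI was found in 57% of forelimb mesenchyme cells and 0.405% of hindlimb ones, and a Pitx1 UMI in 0.350% and 75.0%. Tbx4 was seen in 7.12% and 41.6%, and Hoxc10 in 0 of 2570 cells, which allows a share of up to 0.117%, and in 30.9%. With each cell thinned to 4000 UMIs (31 forelimb and 7 hindlimb cells were too shallow), Tbx5 was in 37.4% of forelimb cells (35.5 to 39.3) and Pitx1 in 52.3% of hindlimb cells (51.0 to 53.7). Muscle cells served as the background, at 1.79% (0.217 to 6.30) for Tbx5 in the forelimb and 1.36% (0.281 to 3.92) for Pitx1 in the hindlimb after thinning. Median depths were 8223 and 8937 UMIs in mesenchyme and 16404 and 16663 in muscle.

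Cells with UMIs of both limbs' genes were few. Of the 2570 forelimb mesenchyme cells, 1352 held Tbx5 alone, 112 held it with Tbx4, Pitx1 or Hoxc10, 80 held only a hindlimb gene and 1026 held none of the 4. Of the 5191 hindlimb cells, 4479 held hindlimb genes alone, 20 held them with Tbx5, 1 held only Tbx5 and 691 held none. Forelimb cells with a hindlimb gene were for the most part Tbx4 cells, 183 of which were counted against 9 with Pitx1. After thinning, Tbx4 was in 3.15% of forelimb mesenchyme cells (2.51 to 3.91) and in 1.79% of forelimb muscle cells (0.217 to 6.30), the latter on 2 of 112 cells. Forelimb muscle held Tbx4 at 71.4% of its mesenchyme level, next to 12.1% for 15 mesenchyme markers. It therefore cannot serve as a background for this gene.

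**Figure D1:**
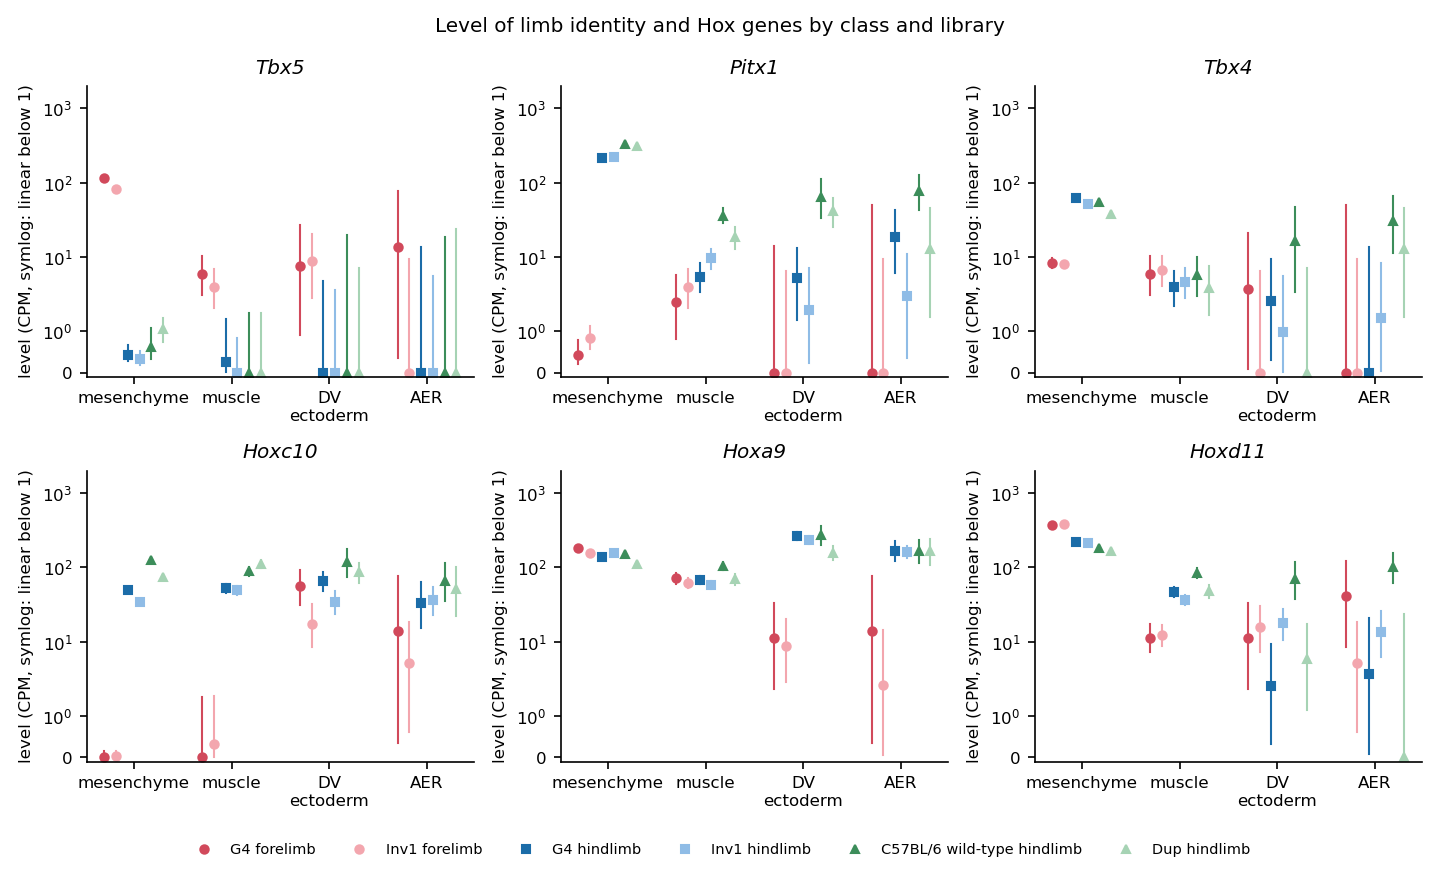
Level of 6 genes in CPM (log axis that is linear below 1) by cell class, with 1 point per library and bars for exact 95% Poisson intervals. Tbx5 and Pitx1 part the limbs in mesenchyme (117 and 81.3 against at most 1.07 CPM for Tbx5), whereas Hoxc10 is as high in hindlimb muscle (52.9 CPM in G4) as in hindlimb mesenchyme (49.4 CPM), and Hoxa9 is lower in forelimb than hindlimb ectoderm (11.3 and 266 CPM in G4).

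Across the transcriptome of mesenchyme, 8440 genes were measured, meaning a mean of 10 CPM or more over the G4 pair with 20 or more UMIs expected in the shallower library. With 10 CPM added to both levels before the ratio, which understates the change of low genes, 121 genes (1.43%) were 2-fold or more higher in the forelimb and 13 (0.154%) in the hindlimb. The Inv1 pair gave 18 (0.213%) and 9 (0.107%), and 10 genes (0.118%) and 8 genes (0.0948%) passed in both pairs in the same direction. The shared genes were 8.26% of the G4 and 55.6% of the Inv1 forelimb list, and 61.5% and 88.9% of the hindlimb lists.

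The excess of forelimb-higher genes moved with the library. The median log2 ratio of all measured genes was 0.24 in the G4 pair and 0.06 in the Inv1 pair. Scaling by the median of gene ratios in place of total UMIs left 25 genes higher in the forelimb and 18 in the hindlimb, so that the forelimb share of genes past 2-fold went from 90.3% to 58.1%. Of the genes past 2-fold in both pairs, 9 of 10 and 8 of 8 remained past it in the rescaled G4 pair. The Inv1 pair was not rescaled. The 117 forelimb-higher genes with an annotated span had a median span of 79.2 kb, against 24.6 kb for all measured genes and 12.4 kb for the hindlimb-higher ones. The part of ribosomal share and gene span in these counts was not tested.

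**Figure D2:**
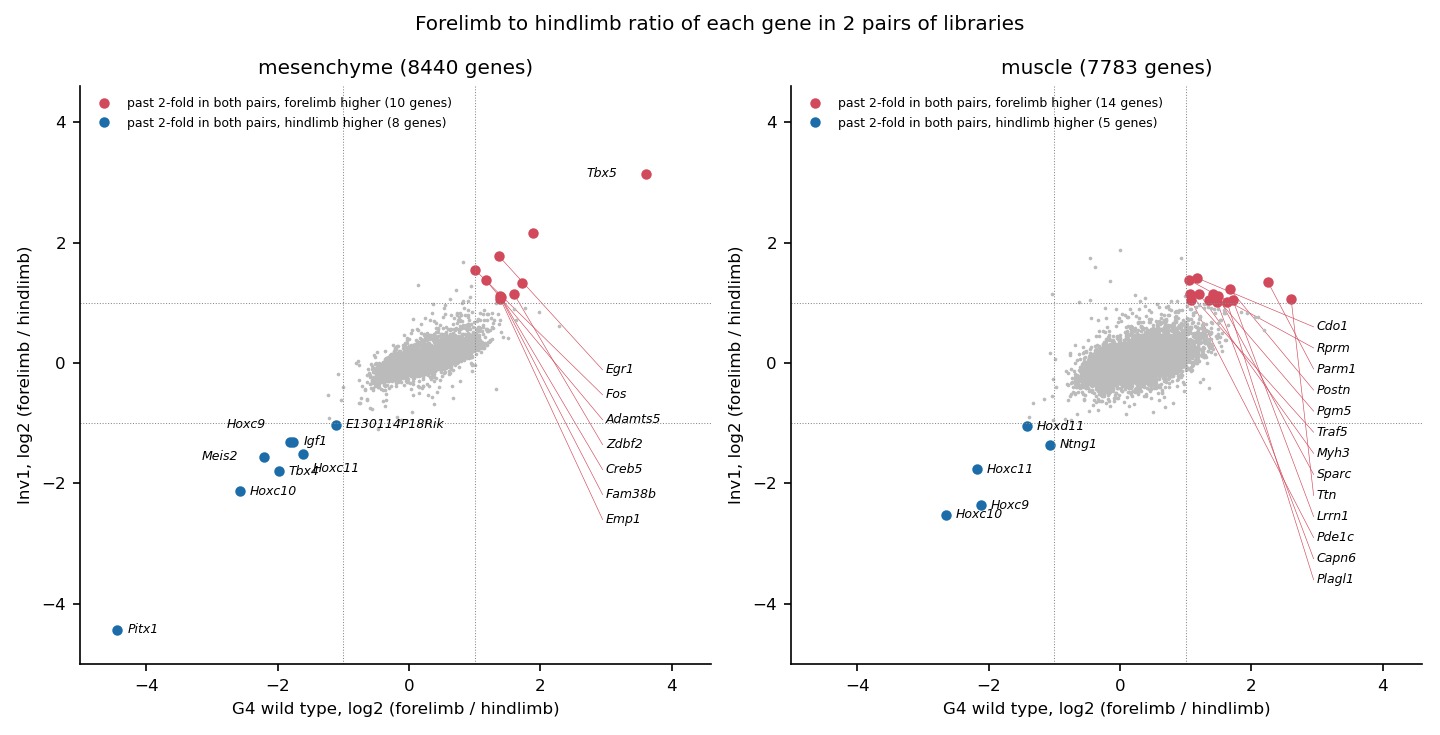
Log2 forelimb-to-hindlimb ratio of every measured gene (pseudocount 10 CPM) in the G4 pair (horizontal) against the Inv1 pair (vertical), for mesenchyme (8440 genes) and muscle (7783), with dotted lines at 2-fold. Most points crowd near 0 but lie to the right of it, at a median of 0.24 in G4, while 10 and 8 genes in mesenchyme and 14 and 5 in muscle pass 2-fold in both pairs (coloured, with names where the gene has a symbol).

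The 8 hindlimb genes of both pairs were Pitx1, Tbx4, Hoxc9, Hoxc10, Hoxc11, Meis2, Igf1 and E130114P18Rik. In each the 2 forelimb libraries lay below all 4 hindlimb libraries, as they did in 10.2% of all measured genes. Of those 6 libraries, 4 had chosen the genes. Hoxc9, Hoxc10 and Hoxc11, with 0 UMIs in the G4 forelimb, were past 2-fold in the G4 pair by the level filter itself. Meis2, a homeodomain factor of the proximal limb, was at 8.85 and 6.23 CPM in the G4 and Inv1 forelimbs and at 77.0, 37.8, 198 and 64.7 CPM in the G4, Inv1, C57BL/6 wild-type and Dup hindlimbs. Its G4 difference was 8.71-fold (7.57 to 10.1), and the C57BL/6 wild-type hindlimb stood highest of all. Igf1, a secreted growth factor, was at 7.86 and 9.67 CPM in forelimbs and 50.5, 38.6, 101 and 52.4 CPM in hindlimbs, a G4 difference of 6.42-fold (5.52 to 7.49). E130114P18Rik was at 9.10 and 4.14 CPM against 31.2, 18.7, 21.1 and 22.4 CPM.

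Both forelimbs lay above every hindlimb in 35.3% of all measured genes, so that this order says little of a single gene. Of the 10 forelimb genes of both pairs, which 4 of the 6 libraries had chosen, 8 did not overlap between limbs: Tbx5, Zdbf2, Creb5, Emp1, Adamts5, Fam38b and the unnamed ENSMUSG00000098557 and ENSMUSG00000107053. Creb5, a CREB-family transcription factor, was at 90.6 and 101 CPM in the G4 and Inv1 forelimbs and 28.4 to 41.5 CPM in the hindlimbs, with a G4 ratio of 3.19 (2.98 to 3.41). Zdbf2, an imprinted zinc finger gene, was at 84.0 and 52.4 CPM against 15.2 to 26.6 CPM. Adamts5, an extracellular protease, was at 20.8 and 35.7 CPM against 3.23 to 7.63 CPM, and Emp1, a membrane protein gene, at 32.0 and 32.9 CPM against 1.99 to 10.5 CPM. Fam38b was at 24.6 and 24.9 CPM against 3.09 to 6.37 CPM. The identifier ENSMUSG00000107053 had 637 and 1236 UMIs in the forelimbs and 0 in the G4 and Inv1 hindlimbs, and it had no row in the C57BL/6 table. Having passed the level filter through the forelimb alone, it was past 2-fold in the G4 pair by that filter.

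The remaining pair, Fos and Egr1, are immediate early genes that also respond to tissue dissociation, and their limbs overlapped. Fos was at 79.4 and 149 CPM in the forelimbs and 34.7, 44.2, 56.0 and 179 CPM in the hindlimbs, the highest level being that of the Dup hindlimb. Egr1 was at 44.9 and 147 CPM against 11.2, 36.0, 15.3 and 67.9 CPM. Both genes came from a list of 16 dissociation stress genes, of which 11 were measured, 2 passed 2-fold higher in the forelimb in the G4 pair (1.43% of all measured genes did) and 4 in the Inv1 pair (0.213%).

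Genes with the largest G4 ratios were not all shared with Inv1. Epha3, an ephrin receptor gene, was at 65.1 CPM in the G4 forelimb and 5.42 CPM in the hindlimb, 12.0 times (10.5 to 13.7), but at 28.3 and 14.9 CPM in Inv1, 1.89 times (1.72 to 2.08). Ebf3 (104 and 23.6 CPM), Flrt2 (70.2 and 15.9 CPM) and Shisa2 (87.9 and 26.2 CPM) were 4.41, 4.42 and 3.35 times higher in the G4 forelimb and 2.07, 1.97 and 1.41 times in the Inv1 forelimb. Ddx3x and Smad5 were 3.07 and 3.01 times higher in G4 and 1.38 and 1.51 times in Inv1, and Lars2, named above for its level in all cells, 4.49 and 1.95 times. On the hindlimb side, Irx3 (2.69 and 19.7 CPM), Meis1 (4.10 and 18.9 CPM) and Tcf15 (7.22 and 24.5 CPM) were 7.33, 4.62 and 3.40 times higher in G4 and 3.20, 4.11 and 1.74 times in Inv1. All kept their direction in the Inv1 pair, and whether the size differed between genotypes was not tested.

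Promoters of hindlimb genes are shown because these genes moved together. RefSeq promoters (250 bases before to 50 after the start, build GRCm38.p6) matched 4 of the 8 hindlimb genes of both pairs, and each was searched on both strands for a PITX motif (TAATCC), an E-box (CAGCTG), a homeodomain core (TAATTA) and a MEIS motif (TGACAG). The E-box was in 3 of the 4 (Tbx4, Igf1 and E130114P18Rik) and the other motifs in none. The E-box was in 16.3% of all 32851 promoters, the PITX motif in 7.06%, the homeodomain core in 5.29% and the MEIS motif in 19.2%. A match is a description of letters only. Meis2, with the largest G4 difference of the 4, held none of the motifs. Promoters of the next 2 in size, both with an E-box, are printed 5′ to 3′ with it in capitals, Tbx4 from chr11:85896515-85896814 (plus strand) and Igf1 from chr10:87860861-87861160 (plus strand).
Tbx4: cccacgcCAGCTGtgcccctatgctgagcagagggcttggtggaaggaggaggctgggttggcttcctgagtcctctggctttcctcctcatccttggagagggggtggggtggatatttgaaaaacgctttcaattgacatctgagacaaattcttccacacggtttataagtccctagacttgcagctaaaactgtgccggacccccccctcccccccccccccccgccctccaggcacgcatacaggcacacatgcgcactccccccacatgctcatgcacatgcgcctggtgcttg
Igf1: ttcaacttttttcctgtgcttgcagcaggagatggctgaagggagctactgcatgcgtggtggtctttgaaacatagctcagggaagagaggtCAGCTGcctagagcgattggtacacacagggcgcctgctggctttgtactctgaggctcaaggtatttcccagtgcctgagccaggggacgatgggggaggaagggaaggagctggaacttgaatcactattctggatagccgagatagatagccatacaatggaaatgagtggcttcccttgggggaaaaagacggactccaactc

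Hox clusters differed from each other in mesenchyme. The measured HoxC genes were at or near 0 in the forelimb. Of 9 genes with a row, 4 were measured (Hoxc6, Hoxc9, Hoxc10 and Hoxc11). All 4 were 2-fold or more higher in the hindlimb, as were 0.154% of all measured genes. Their median log2 ratio was −1.71 in G4 and −1.41 in Inv1 against 0.24 and 0.06 over all genes. Hoxc9, Hoxc10 and Hoxc11, with 0 UMIs in the G4 forelimb, passed the level filter through the hindlimb alone. A gene that passes in this way is past 2-fold by the filter itself, so the count and median add nothing to the levels. Hoxc9 had 0 UMIs in the G4 forelimb and was at 25.2 CPM in the hindlimb, at least 197-fold higher, and Hoxc11 had 0 UMIs and 20.5 CPM, at least 160-fold. Hoxc8, under the level filter, had 0 UMIs and 11.3 CPM, at least 88.3-fold. Hoxc6 was detected in the forelimb, at 2.69 against 19.5 CPM, 7.25-fold lower than in the hindlimb (5.62 to 9.51).

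HoxD genes leaned the other way. All 6 measured genes lay above the median gene in the G4 pair, with a median log2 ratio of 0.76 (0.73 in Inv1), though with 10 CPM added to both levels only Hoxd13 passed 2-fold. Hoxd13, the last gene of the cluster and expressed most distally, was at 415 and 346 CPM in the G4 and Inv1 forelimbs and 130, 182, 74.6 and 143 CPM in the hindlimbs, 3.20 times higher in G4 (3.10 to 3.30) and 1.91 times in Inv1 (1.86 to 1.96). The other 5 were closer in the 2 pairs: Hoxd8 at 2.24 and 2.14 times, Hoxd9 at 1.60 and 1.62, Hoxd10 at 1.91 and 2.03, Hoxd11 at 1.69 and 1.82 and Hoxd12 at 1.89 and 1.61 times. In each of the 6 but Hoxd9 both forelimbs lay above all 4 hindlimbs, as in 35.3% of all measured genes.

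HoxA genes were near level. None of 7 measured genes passed 2-fold in either pair, and the median log2 ratio was 0.32 in G4 and 0.03 in Inv1. Hoxa11, of the middle limb segment, was at 84.1 and 80.8 CPM in the G4 forelimb and hindlimb, a ratio of 1.04 (0.986 to 1.10). Hoxa13, of the hand and foot plate, was 1.46 times higher in the G4 forelimb (1.40 to 1.53) and 0.949 times in Inv1 (0.912 to 0.988), so that its direction differed between the pairs. HoxB genes were too low to be measured, with 0 of 8 past the filter.

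**Figure D3:**
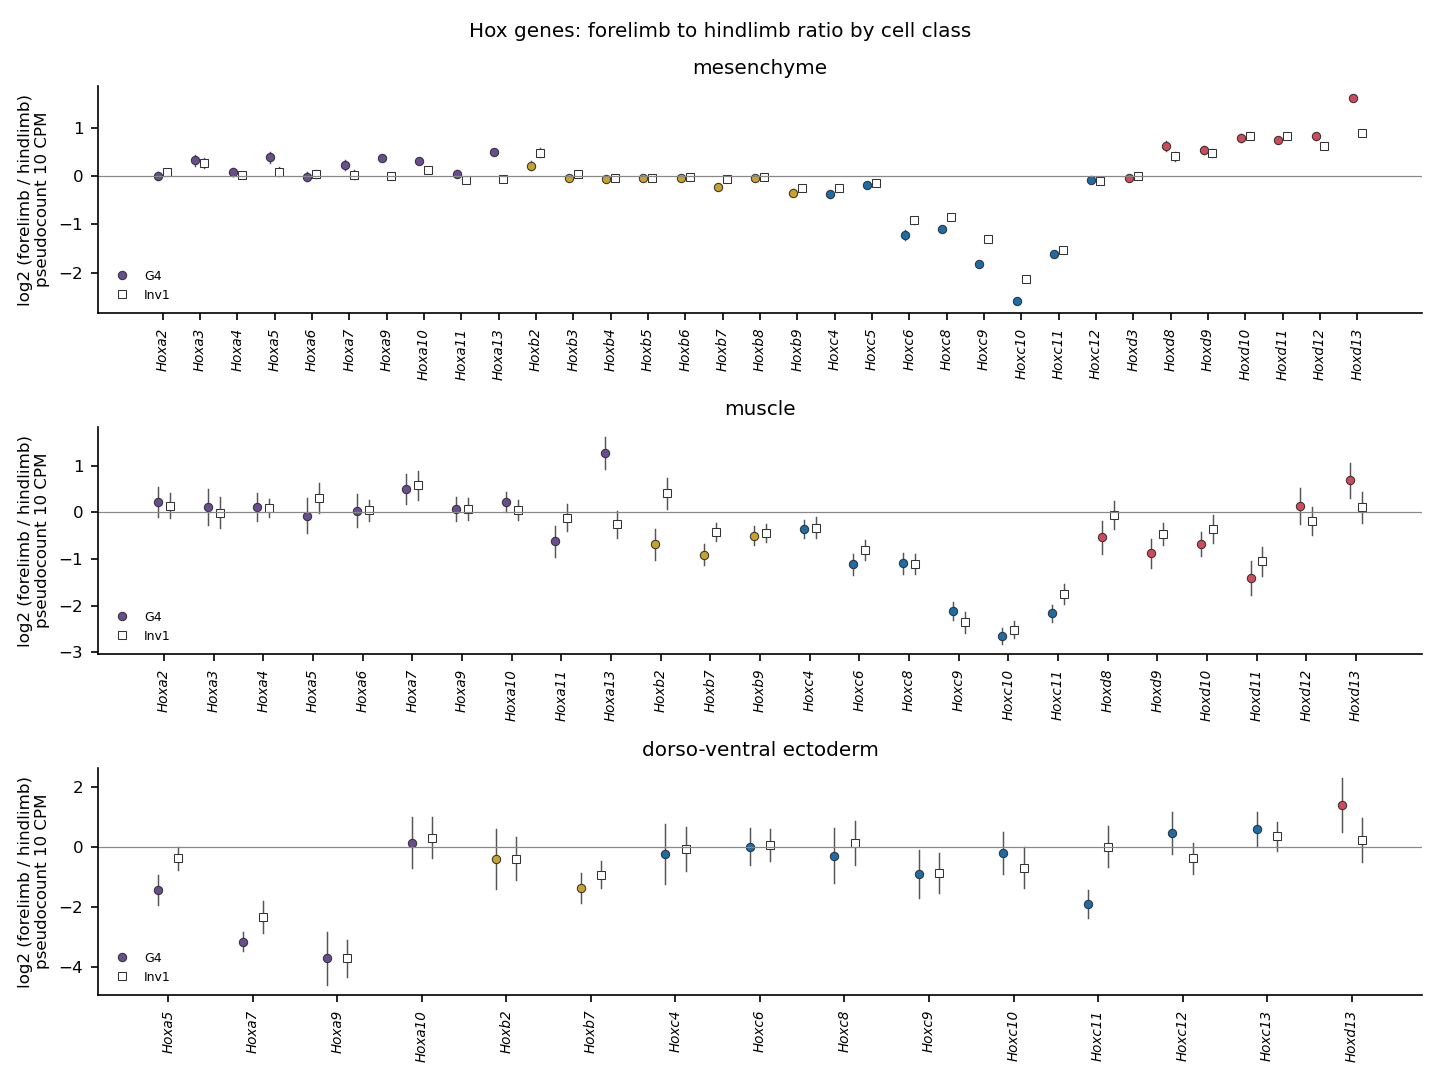
Log2 forelimb-to-hindlimb ratio of Hox genes (pseudocount 10 CPM) by cell class, with circles for the G4 pair, coloured by cluster, squares for the Inv1 pair and bars for 95% intervals of counting error. In the G4 pair the HoxC genes lie below 0 in mesenchyme and muscle but Hoxc6, Hoxc12 and Hoxc13 do not in ectoderm (0.02, 0.46 and 0.62), and Hoxd11 lies above 0 in mesenchyme (0.73) and below 0 in muscle (−1.41).

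Mesenchyme cells were also split by genes of distal and proximal limb position. Cells with a UMI of Hoxa13 or Hoxd13 (distal gate) made up 64.9% of G4 forelimb mesenchyme (63.0 to 66.7) and 45.2% of hindlimb mesenchyme (43.8 to 46.5), and 73.7% and 61.8% in Inv1. The Dup hindlimb had 53.4% and the C57BL/6 wild-type one 34.4%. Cells with a UMI of Meis1 or Meis2 and neither Hoxa13 nor Hoxd13 (proximal gate) made up 4.44% of forelimb and 20.2% of hindlimb mesenchyme, 2.04% and 9.55% in Inv1, and 38.2% and 14.7% in the other hindlimbs. As the gates use genes that themselves differ between the limbs, these shares are another view of those genes and not a separate result.

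Within gates, limb identity genes kept their direction. Tbx5 was at 94.0 and 0.117 CPM in distal cells of the G4 forelimb and hindlimb, and at 225 and 0.745 CPM in proximal cells. Pitx1 was at 0.362 and 143 CPM in distal cells and 1.15 and 279 CPM in proximal cells, the proximal forelimb value resting on 1 UMI. Hoxc10 had 0 UMIs in every forelimb gate and was at 20.5 CPM in distal and 108 CPM in proximal hindlimb cells. Tbx4 was at 8.62 and 49.2 CPM in distal and 13.8 and 71.6 CPM in proximal cells.

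Other genes depended on the gate. Hoxd11 was 1.33 times higher in the forelimb among distal cells (1.28 to 1.38), 4.26 times among proximal cells (3.61 to 5.01) and 1.81 times among cells of neither gate (1.72 to 1.91), and the Inv1 pair gave 1.61, 5.60 and 2.06. The proximal value reflects 238 and 56.0 CPM in forelimb and hindlimb. Hoxd13, which defined the distal gate and so was not read as free of it, was 2.29 times higher there, whereas Hoxa13 was at 1.05. Igf1 was lower in the forelimb in distal cells (2.65 and 8.62 CPM, ratio 0.308) and in proximal ones (56.2 and 148 CPM, ratio 0.380). E130114P18Rik was lower in the G4 forelimb among distal cells, at 7.59 and 34.5 CPM, but not among proximal cells, at 14.9 and 9.16 CPM on 13 and 86 UMIs, a ratio of 1.63 (0.833 to 2.93). Proximal cells of the Inv1 pair went the other way, at 4.26 and 9.08 CPM on 3 and 43 UMIs, a ratio of 0.469 (0.0931 to 1.47).

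**Figure D4:**
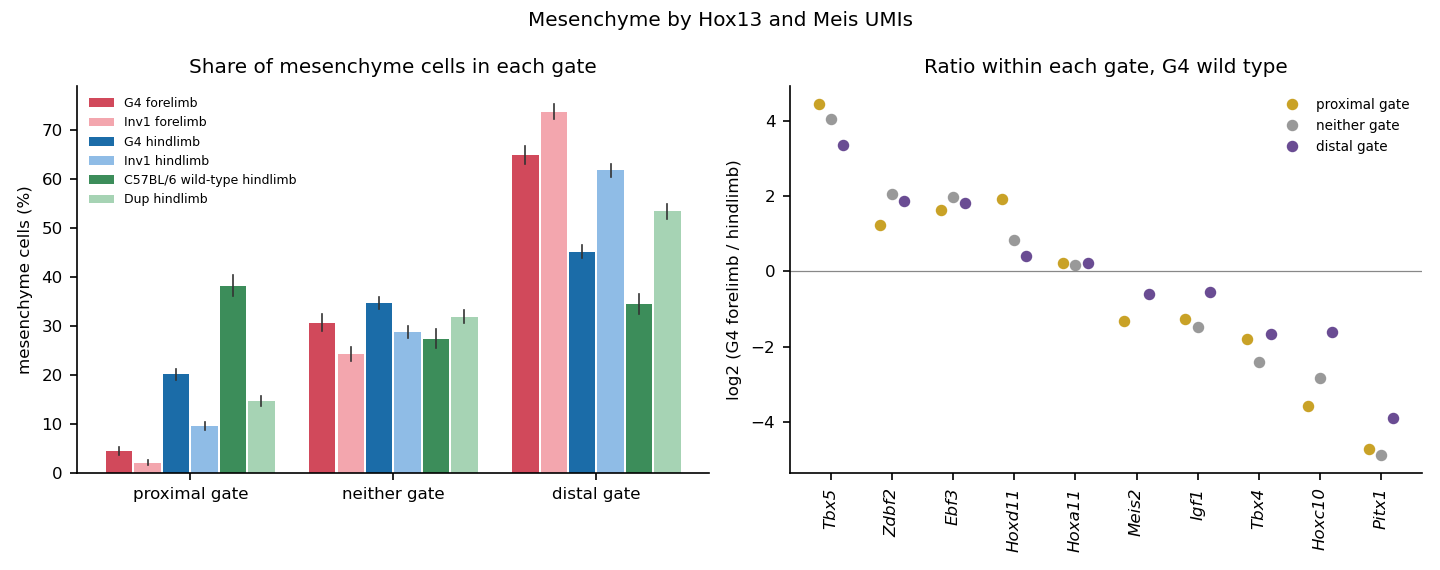
Share of mesenchyme cells in the distal gate (a UMI of Hoxa13 or Hoxd13) and the proximal gate (a UMI of Meis1 or Meis2 and of neither Hoxa13 nor Hoxd13) and of the cells in neither gate, in 6 libraries with exact 95% intervals, and the G4 forelimb-to-hindlimb ratio of genes within gates on a log axis. A larger share of forelimb cells (64.9% and 73.7%) than of hindlimb cells (34.4% to 61.8%) falls in the distal gate, which is another view of the gate genes. Tbx5 and Pitx1 differ in each gate.

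Lists of pathway and cell state genes in mesenchyme are read against the all-gene median of 0.24 and the 1.43% and 0.154% of all measured genes past 2-fold. In Inv1 the same values were 0.06, 0.213% and 0.107%. Of 15 measured distal limb genes, 2 were past 2-fold higher in the forelimb (Hoxd13 and Evx2) and the median was 0.67 (0.39 in Inv1, also with 2 past 2-fold). Evx2, next to Hoxd13 on the chromosome, was at 32.6 and 10.7 CPM. Of 10 measured proximal limb genes, 3 were higher in the hindlimb (Meis1, Meis2 and Irx3), with a median of −0.01 (−0.10 in Inv1, with 1 past 2-fold).

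Skeletal and connective tissue genes had list medians above that of all genes in both pairs, with fewer past 2-fold in Inv1. Of 12 measured chondrogenic genes, 4 were 2-fold or more higher (Col2a1, Foxc1, Sox5 and Sox6) and all 12 lay above the all-gene median, with a list median of 0.94 in G4 and 0.54 in Inv1, where 1 passed 2-fold. Col2a1, the main cartilage collagen, was at 218 and 111 CPM in the G4 and Inv1 forelimbs and 99.3, 77.8, 154 and 75.7 CPM in the hindlimbs, so that the limbs overlapped. Sox9, the regulator of chondrogenesis, was 1.97 times higher in G4 (322 and 164 CPM) and 1.37 times in Inv1, and the C57BL/6 wild-type hindlimb was level with the G4 forelimb at 323 CPM. Of 15 measured tendon and connective tissue genes, 4 were higher in the forelimb (Col1a1, Ebf3, Pdgfra and Tcf4), with a median of 0.81 (0.41 in Inv1, with 0 past 2-fold). Of these and the 4 chondrogenic genes, only Ebf3 and Foxc1 stayed past 2-fold with median-of-ratios scaling of the G4 pair. Col1a1 was at 132 and 119 CPM in forelimbs and 54.4 to 65.9 CPM in hindlimbs, without overlap, as in 35.3% of all measured genes. Scx, a tendon regulator, was at 116 and 135 CPM in G4, a ratio of 0.864 (0.826 to 0.904).

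BMP, Wnt and Shh lists held a larger share of genes past 2-fold in the G4 pair than the 1.43% of all measured genes. With median-of-ratios scaling of the G4 pair, only Gli3 of these genes stayed past it. In the BMP pathway 3 of 14 measured genes were higher in the forelimb (Bmp2, Bmpr1a and Bmpr2; median 0.59, and 0.52 with 0 past 2-fold in Inv1), in the Wnt pathway 2 of 14 (Fzd1 and Wnt5a; 0.58, and 0.21 with 0 past 2-fold in Inv1), and in the Shh pathway 1 of 7 (Gli3; 0.54, and 0.12 with 0 past 2-fold in Inv1). Bmp2 was at 48.9 and 51.7 CPM in the forelimbs and 15.5, 25.0, 9.10 and 20.3 CPM in the hindlimbs. None of 12 FGF pathway genes, 10 retinoic acid genes or 18 cell cycle genes was past 2-fold in either direction, with medians of 0.40, 0.37 and 0.16. None of 14 measured transcription factors from a further list of limb regulators was past 2-fold (median 0.59, and 0.06 in Inv1), and Isl1, which acts early in the hindlimb field, was under the level filter at 1.62 CPM in the forelimb and 16.2 CPM in the hindlimb (9.98-fold, 7.21 to 14.2).

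Muscle cells, 112 from the forelimb and 221 from the hindlimb, held 7783 measured genes. In the G4 pair 310 (3.98%) were 2-fold or more higher in the forelimb and 13 (0.167%) in the hindlimb, and in Inv1 28 (0.360%) and 6 (0.0771%). Both pairs shared 14 genes (0.180%) and 5 genes (0.0642%), which is 14 of 310 and 14 of 28 genes on the forelimb lists and 5 of 13 and 5 of 6 on the hindlimb lists of G4 and Inv1. With median-of-ratios scaling the G4 counts were 95 and 31, so that the forelimb share went from 96.0% to 75.4%. Of the genes of both pairs, 9 of 14 and 5 of 5 remained past 2-fold in the rescaled G4 pair, and the Inv1 pair was not rescaled. The all-gene median was again 0.24 (0.03 in Inv1), and the forelimb-higher genes had a median span of 68.3 kb against 24.2 kb. Mesenchyme markers from 15 genes summed to 12.1% of their mesenchyme level in forelimb muscle and 10.8% in hindlimb muscle, and their part in these counts was not tested beyond leaving out the 7 and 6 cells with UMIs of 8 or more of them.

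Ttn and Myh3, genes of contractile proteins, were past 2-fold higher in the forelimb in both pairs. With median-of-ratios scaling of the G4 pair, Ttn stayed past it (log2 ratio 2.29) but Myh3 did not. Ttn, the giant sarcomere protein titin, was at 857 and 692 CPM in the G4 and Inv1 forelimbs and 132, 325, 86.0 and 94.2 CPM in the hindlimbs, 6.48 times higher in G4 (5.87 to 7.16) and 2.13 times in Inv1 (1.99 to 2.28). Myh3, embryonic myosin heavy chain, was at 116 and 308 CPM against 44.4, 134, 17.1 and 22.2 CPM, 2.61 times in G4 (2.14 to 3.20), and its limbs overlapped. Neb, the thin filament protein nebulin, was 4.91 times higher in G4 (212 and 43.1 CPM) but 1.74 times in Inv1, under the 2-fold limit, and the skeletal actin gene Acta1 was higher in the G4 hindlimb.

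The other forelimb genes of both pairs were Parm1, Lrrn1, Capn6, Plagl1, Postn, Sparc, Pgm5, Rprm, Cdo1, Traf5, Pde1c and the unnamed ENSMUSG00000099906, and all 12 lay higher in both forelimbs than in all 4 hindlimbs. Of all measured muscle genes 24.4% did so, and 4 of the 6 libraries had chosen these 12. Parm1 was at 103 and 69.0 CPM against 13.8 to 38.7 CPM, 7.49 times in G4 (5.52 to 10.3). Postn, the matrix protein periostin, was at 35.2 and 26.7 CPM against 1.90 to 13.5 CPM, and Sparc, another matrix protein, at 108 and 102 CPM against 31.9 to 79.7 CPM. Plagl1, an imprinted zinc finger gene, was at 207 and 136 CPM against 53.2 to 74.4 CPM.

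Myogenic regulators ran from lower in the forelimb (Pax3) to higher (Myog and Mef2c). Pax3, of migrating precursors, was at 61.9 and 31.0 CPM in the forelimbs and 110, 69.0, 144 and 81.2 CPM in the hindlimbs, a ratio of 0.563 in G4 (0.457 to 0.689) and 0.449 in Inv1 (0.352 to 0.569). Lbx1, required for migration, gave 0.928 (0.793 to 1.08) and Myf5, an early determination factor, 0.953 (0.802 to 1.13), neither distinguishable from 1. Myod1 gave 1.52 (1.38 to 1.66) and 1.41 in Inv1, and Myog, of terminal differentiation, 1.93 (1.78 to 2.08) and 1.60. Mef2c was 2.39 times higher (2.05 to 2.78) and Des, desmin, 2.24 times (1.79 to 2.80). The log2 ratios of Lbx1 and Myf5, −0.10 and −0.06, lay below the median of all measured genes in the G4 pair, 0.24.

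Of the 26 myogenic genes 25 were measured in muscle, with 3 past 2-fold higher in the forelimb (Ttn, Myh3 and Mef2c), 1 higher in the hindlimb and a median of 0.52, beside 3.98% and 0.167% of all measured genes and their median of 0.24. Of the 25, 17 lay above that median. In Inv1 the counts were 6 and 0, beside 0.360% and 0.0771%, and the median 0.56. The hindlimb-higher gene was Acta1, skeletal actin, at 41.1 and 95 CPM in G4 but 418 and 182 CPM in Inv1. In G4 its UMIs came from 6 forelimb and 10 hindlimb cells. With median-of-ratios scaling of the G4 pair, neither Myh3 nor Mef2c stayed past 2-fold. Pax3 (−1.03) and Acta1 (−1.32) were then past it in the hindlimb direction. Of 19 cell cycle genes in muscle, 1 (Mki67) was past 2-fold, a share near the 3.98% of all genes, and the median was 0.11 (−0.19 in Inv1, with 0 past 2-fold).

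Shares of muscle cells with a UMI of Pax3, Myog and Ttn followed the levels. With each cell thinned to 4000 UMIs, a Pax3 UMI was in 16.1% of G4 forelimb muscle cells (9.81 to 24.2) and 33.0% of hindlimb ones (26.9 to 39.7), and in 11.3% and 22.8% in Inv1. Myog was in 40.2% (31.0 to 49.9) and 20.8% (15.7 to 26.8), and in 37.5% and 26.5% in Inv1, while Ttn was in 52.7% (43.0 to 62.2) and 15.4% (10.9 to 20.8), and in 45.8% and 24.3%. Myf5 did not differ beyond counting error in G4, at 28.6% (20.4 to 37.9) and 30.3% (24.3 to 36.8), and was in 35.7% and 27.6% in Inv1. Myh3, higher in the forelimb by level, was in 9.82% (5.01 to 16.9) and 6.33% (3.51 to 10.4) in G4, with intervals that overlap. In mesenchyme cells of the G4 libraries these shares were 1.65% or lower.

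**Figure D5:**
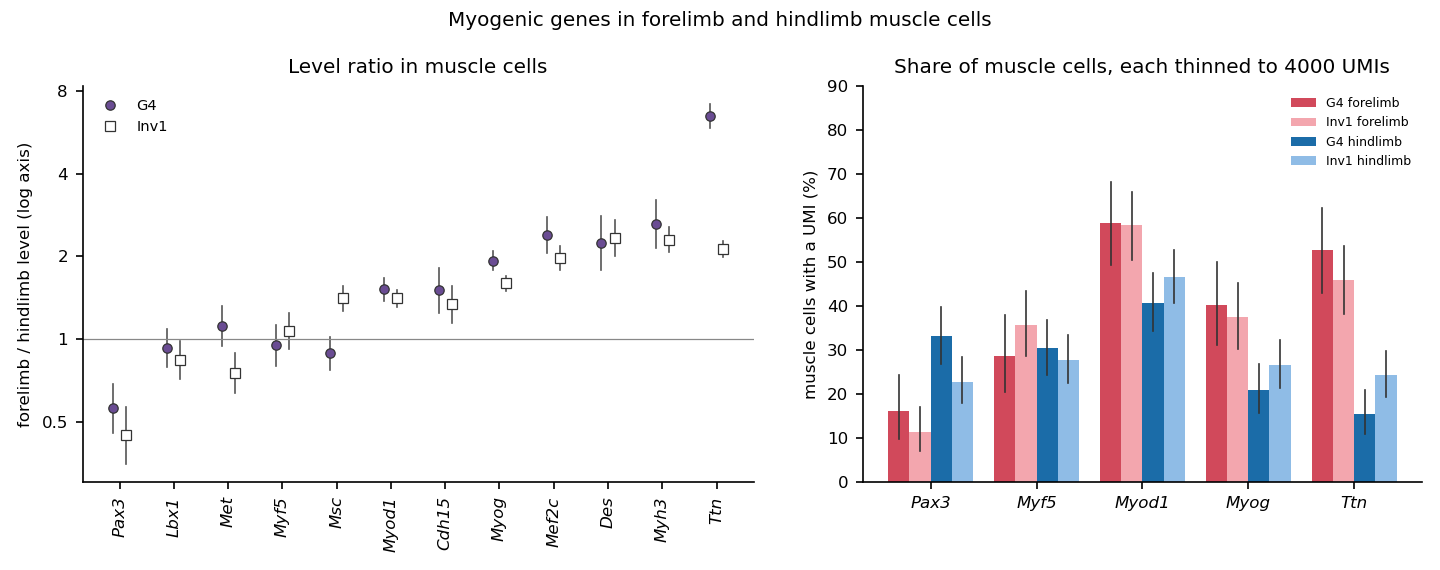
Left, forelimb-to-hindlimb ratio of myogenic genes in muscle cells (log axis, exact 95% intervals) in the G4 and Inv1 pairs; right, share of muscle cells with a UMI of each gene after thinning to 4000 UMIs, with exact 95% intervals. Ratios run from 0.563 for Pax3 to 6.48 for Ttn in G4, and Ttn is in 52.7% of G4 forelimb and 15.4% of hindlimb muscle cells.

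Promoters of the contractile genes are shown because both moved to the forelimb in both pairs. Of the 14 forelimb muscle genes of both pairs 12 had a promoter in the RefSeq table, where the MEIS motif (TGACAG, or CTGTCA on the other strand) was in 4 (Ttn, Myh3, Pde1c and Traf5) and the E-box (CAGCTG) in 5 (Parm1, Lrrn1, Pde1c, Pgm5 and Sparc), against 19.2% and 16.3% of all promoters. The sequences of Ttn, from chr2:76982498-76982797 (minus strand, build GRCm38.p6), and Myh3, from chr11:67078050-67078349 (plus strand), run 5′ to 3′ with the MEIS motif in capitals.
Ttn: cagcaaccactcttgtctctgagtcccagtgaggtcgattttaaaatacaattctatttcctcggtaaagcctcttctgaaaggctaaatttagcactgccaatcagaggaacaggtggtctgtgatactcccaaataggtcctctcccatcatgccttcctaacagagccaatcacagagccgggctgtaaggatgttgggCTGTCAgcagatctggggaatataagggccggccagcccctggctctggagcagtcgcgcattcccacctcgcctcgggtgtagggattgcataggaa
Myh3: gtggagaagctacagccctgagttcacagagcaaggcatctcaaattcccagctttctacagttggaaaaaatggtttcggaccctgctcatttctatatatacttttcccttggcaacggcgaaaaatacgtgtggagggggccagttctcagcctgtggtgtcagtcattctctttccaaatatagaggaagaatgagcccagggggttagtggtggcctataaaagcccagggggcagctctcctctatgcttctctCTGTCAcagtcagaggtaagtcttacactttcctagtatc

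Hindlimb muscle carried posterior Hox genes, with 5 genes past 2-fold in both pairs: Hoxc9, Hoxc10, Hoxc11, Hoxd11 and Ntng1, an axon guidance gene. Hoxc10 had 0 UMIs in forelimb muscle and was at 52.9 CPM in the hindlimb, at least 35.6-fold higher. Hoxc11 and Hoxc9 had 0 UMIs and were at 35.0 and 33.5 CPM. As in mesenchyme, Hoxc9, Hoxc10 and Hoxc11 passed the level filter through the hindlimb alone. They were thus past 2-fold in the G4 pair by the filter itself. Hindlimb muscle held these genes at 107% (Hoxc10), 133% (Hoxc9) and 171% (Hoxc11) of the mesenchyme level of the same library. Tbx4 and Pitx1 were at 6.26% and 2.52% of it, under the 10.8% of the mesenchyme markers, and are read as background there. In the forelimb, Tbx5 in muscle was at 5.07% of its mesenchyme level, likewise under the 12.1% of the markers, whereas Tbx4 was at 71.4%, on 12 UMIs in 10 of 112 cells.

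Hoxd11 went opposite ways in the muscle and mesenchyme. In muscle it was at 11.4 and 12.3 CPM in the G4 and Inv1 forelimbs and 47.0, 36.2, 84.6 and 48.3 CPM in the hindlimbs, 4.12 times higher in the G4 hindlimb (2.66 to 6.67). In mesenchyme, by contrast, it was at 370 and 385 CPM in the forelimbs and 164 to 218 CPM in the hindlimbs. Forelimb muscle thus held 3.08% of the mesenchyme level and hindlimb muscle 21.5%, next to 12.1% and 10.8% for the mesenchyme markers. Hoxa9 did not separate the limbs in muscle, at 71.4 and 68.0 CPM (ratio 1.05, with 1.29 as its upper bound).

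Dorso-ventral ectoderm, the surface epithelium of the bud, held 2074 measured genes in 24 forelimb and 64 hindlimb cells, with 69 (3.33%) and 15 (0.723%) past 2-fold higher in forelimb and hindlimb. The Inv1 pair showed no such excess, with 4 (0.193%) and 7 (0.338%), and 1 gene each way was shared. Hoxa9 led the hindlimb side, at 11.3 and 8.78 CPM in the G4 and Inv1 forelimbs and 266, 234, 270 and 156 CPM in the hindlimbs. It was 23.5 times higher in the G4 hindlimb (lower bound 7.94) and was seen in 54 of 64 hindlimb cells and 1 of 24 forelimb cells. Its neighbour Hoxa7, under the level filter, had 0 and 1 UMIs in the forelimbs and was at 78.6, 49.2, 54.0 and 54.8 CPM in the hindlimbs, at least 6.97-fold higher in G4. In mesenchyme Hoxa9 was at 180 and 137 CPM, a ratio of 1.31 (1.26 to 1.36).

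HoxC genes were present in the forelimb ectoderm. Hoxc10, with 0 UMIs in G4 forelimb mesenchyme and muscle, was at 56.4 CPM in the G4 forelimb ectoderm (11 of 24 cells) and 65.7 CPM in the hindlimb, a ratio of 0.858 (0.448 to 1.55), and at 17.6 and 34.4 CPM in Inv1. Hoxc6 was at 86.5 and 85.1 CPM (1.02, 0.603 to 1.66), Hoxc12 at 67.7 and 46.4 CPM (1.46, 0.780 to 2.64) and Hoxc13, a gene of skin appendages, at 120 and 74.8 CPM (1.61, 1.01 to 2.52). Hoxc11 had 0 and 21 UMIs in G4 but 13 and 23 in Inv1. Tbx5 had 2 UMIs in G4 forelimb ectoderm, and Pitx1 was at 2.39% of its mesenchyme level in the hindlimb ectoderm, where mesenchyme markers stood at 5.41%.

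Other ectoderm genes differed less evenly. Alcam, a cell adhesion gene, was past 2-fold in both pairs, at 113 and 139 CPM in the forelimbs and 37.8 to 60.6 CPM in the hindlimbs. Col17a1, a hemidesmosome collagen, was at 150 and 23.2 CPM in G4 (6.48 times, 3.63 to 12.0) and 1.97 times higher in Inv1, while Fbln5, Pbrm1 and Tab2 were 3.14 to 4.17 times higher in G4 and 0.956 to 1.37 times in Inv1. Ebf1, 68.5 times higher in the G4 forelimb, came from 47 UMIs in 4 of 24 cells, and was 2.43 times lower in the Inv1 forelimb (0.977 to 7.21). It is itself a mesenchyme marker. In ectoderm those markers summed to 13.8% of their mesenchyme level in the G4 forelimb and 5.41% in the G4 hindlimb. Their part in the ectoderm counts was not tested. Mt1, Bola1 and Nup43 were 2.57 to 3.53 times higher in the G4 hindlimb, and 1.16 to 1.54 times in Inv1.

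The AER, with 10 forelimb and 33 hindlimb cells, gave 476 measured genes, of which 21 (4.41%) and 11 (2.31%) were past 2-fold, against 1 (0.210%) each way in Inv1. Fgf8, the main AER signal and a marker by which the authors named the class, was at 2574 CPM in the forelimb and 7315 CPM in the hindlimb, 2.84 times (2.44 to 3.32), with the Dup hindlimb at 3371 CPM and the wild-type C57BL/6 one at 5453 CPM. In Inv1, whose inversion parts Fgf8 from its AER enhancers, it was at 10.3 and 37.6 CPM. Epcam, an epithelial marker, was likewise lower in the forelimb (702 and 1631 CPM), while the mesenchyme gene Col1a2 was higher, at 840 and 141 CPM (5.95 times, 3.90 to 9.17). These differences stand beside mesenchyme markers at 52.4% of the mesenchyme level in the forelimb AER and 35.3% in the hindlimb AER, whose part was not tested. Sp8, another AER factor, was at 248 and 316 CPM (0.785, 0.444 to 1.32) and Trp63 at 399 and 264 CPM (1.51, 0.947 to 2.36). Hoxa9, on 1 and 45 UMIs, and Hoxa7, on 1 and 32, were lower in the forelimb here too, at 13.8 and 167 CPM and at 13.8 and 119 CPM, and in Inv1 Hoxa9 was at 2.58 and 163 CPM.

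Keratinocytes, 15 and 29 cells, held 1935 measured genes, with 76 (3.93%) and 28 (1.45%) past 2-fold. The Inv1 pair gave 11 (0.568%) and 9 (0.465%), and the Inv1 forelimb against the G4 hindlimb 27 and 34, so that the forelimb excess was not seen with the other forelimb library. Krt17, a keratin of early stratifying epithelium, was at 2451 and 3805 CPM in the G4 and Inv1 forelimbs and 271, 1751, 102 and 1286 CPM in the hindlimbs, 9.04 times higher in G4 (7.24 to 11.4). Of its 601 UMIs in the G4 forelimb 292 were in 1 cell. All C57BL/6 wild-type values of this class rest on 4 cells, with mesenchyme markers at 72.7% of the mesenchyme level. Krt18, of simple epithelium and periderm, went the other way, at 228 and 203 CPM against 649, 434, 204 and 597 CPM, with limbs that met only at the 4 cells of the C57BL/6 wild type. Acta2, smooth muscle actin, was higher in the forelimb of both pairs (302 and 86.4 CPM in G4), though the Dup hindlimb was at 404 CPM. Ptn (208 and 649 CPM) and Rfc4 (53.0 and 140 CPM) were higher in the hindlimb of both pairs, which 4 of the 6 libraries made up. Rfc4 was at 53.0 and 51.7 CPM in the forelimbs and 100 to 153 CPM in the hindlimbs. Ptn was lowest in the Dup hindlimb, at 154 CPM.

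Endothelium, 16 and 45 cells, held 3113 measured genes, with 261 (8.38%) and 12 (0.385%) past 2-fold. In Inv1 the balance turned, with 4 (0.128%) and 12 (0.385%), and the Inv1 forelimb against the G4 hindlimb gave 15 and 7. Sox7, an endothelial transcription factor, was the only gene past 2-fold in both pairs, at 94.4 and 84.5 CPM in the G4 and Inv1 forelimbs and 27.5 to 71.1 CPM in the hindlimbs (2.86 times in G4, 1.72 to 4.78). Sox17, a related factor, was at 78.7 and 197 CPM in G4 and 150 and 120 CPM in Inv1. The mesenchyme gene Lhx9 was at 97.0 and 8.51 CPM in G4, and 4 mesenchyme markers summed to 168 and 27.7 CPM in the forelimb and hindlimb. Of the forelimb cells 3 of 16 held UMIs of 8 or more mesenchyme markers, against 1 of 45 in the hindlimb, and their part in the forelimb excess was not tested. Only the named genes, and not the counts, were computed again without these cells.

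Immune cells were too few for most comparisons, with 13 and 19 cells and 961 measured genes, of which 100 (10.4%) and 82 (8.53%) were past 2-fold, and 22 (2.29%) and 43 (4.47%) in Inv1. Many values came from 1 cell: all 149 UMIs of Spp1 in the forelimb were in 1 cell, and Ppbp, a platelet chemokine, had 0 UMIs in the forelimb and 266 in 3 hindlimb cells, 245 of them in 1 cell. The genes past 2-fold in both pairs were 2810417H13Rik, a replication factor gene, at 229 and 197 CPM in the forelimbs and 463 to 596 CPM in the hindlimbs, and ENSMUSG00000098178, at 4045 and 3145 CPM against 1065 to 2118 CPM.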

How the data were processed

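The authors dissociated E11.5 limb buds with trypsin, made 10x Chromium 3′ v2 libraries and counted UMIs with Cell Ranger 3 on a custom mm9 genome (their processing notes also name mm10). They deposited matrices of raw UMI counts per gene and cell, and cell classes from jointly integrated libraries, with doublets removed by Scrublet; the classes were used as deposited. Here cells with over 2000 detected genes were kept, and counts of every gene were summed per library and class. They were expressed as CPM of the total over the 15668 genes shared by both matrices. The ratio of measured genes used a pseudocount of 10 CPM, and a gene was measured at a mean of 10 CPM or more with 20 UMIs expected in the shallower library. Named were the 12 highest and 12 lowest ratios in mesenchyme and the 5 highest and lowest in other classes (no haemoglobin, Xist, Y-linked or unnamed genes), with limb identity, Hox and list genes; genes past 2-fold in both pairs were added after their values were seen. The members and gene lists were chosen with earlier results of these data known. No model was fitted: each group is 1 library, and the Inv1 libraries are not wild type. Of 16687 identifiers 15210 had a symbol, and 13 columns of other per-cell values were not used. Alternatives were other cell, level, pseudocount and scaling settings, gates, and Inv1 libraries in place of G4 ones. The ratio script was tested on simulated data. Python 3.11.15, numpy 2.4.6, scipy 1.17.1, pandas 2.3.3 and matplotlib 3.10.9 were used.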

Additional observations from a re-analysis of the deposited data

Results flagged for a closer look

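Of 84 named genes, 10 were past 1.5-fold in opposite directions in the G4 and Inv1 pairs with a 95% counting interval of the ratio that left out 1 in both pairs, and these 10 were in the small endothelium and immune classes. Ebf1 in dorso-ventral ectoderm met the fold (log2 ratios of 3.89 and −0.79) but not the interval in Inv1, on 6 and 26 UMIs. The difference between the pairs was not tested, and log2 ratios are given with the pseudocount of 10 CPM.

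In endothelium, Gpc3, a glypican, had a log2 forelimb-to-hindlimb ratio of 2.24 in G4 (108 and 14.9 CPM) and −1.79 in Inv1 (5.04 and 42.1 CPM). Ptn, a secreted growth factor, gave 1.79 in G4 (113 and 25.5 CPM) and −1.06 in Inv1 (12.6 and 37.2 CPM).

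In immune cells, Spp1 gave 6.89 in G4 (149 UMIs, all in 1 cell, against 0) and −1.07 in Inv1. Rgs1 gave 5.13 (43 UMIs in 4 cells, against 0) and −4.25 (0 against 61 UMIs). Zfp36l1 gave 2.44 (1019 and 180 CPM) and −0.66 (216 and 347 CPM).

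Platelet genes stood on the other side. Ppbp gave −6.78 in G4 (0 against 266 UMIs) and 3.46 in Inv1 (505 against 71 UMIs, the 505 in 1 cell). Gp9 gave −5.53 and 1.30, and Clec1b −5.40 and 1.26, both with 0 UMIs in the G4 forelimb. Tuba4a gave −4.53 and 2.26, and Rasgrp2 −4.50 and 2.70, each on 1 UMI in the G4 forelimb. For each of these genes 1 cell held most of the G4 hindlimb UMIs. That was 245 of 266 for Ppbp, 100 of 111 for Gp9, 86 of 101 for Clec1b, 68 of 99 for Tuba4a and 71 of 97 for Rasgrp2.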

How the results depend on the processing

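No paired analysis was made: the groups compared share 1 replicate number only, and the labels do not say which embryos gave each limb. As each group is 1 library, none was left out. A fit of limb with genotype as a term over the 4 G4 and Inv1 libraries, with 1 residual degree of freedom, was not run. Inv1 libraries in place of G4 ones, and all alternatives for list medians, were chosen after seeing the data. The cause of these moves was not tested.

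The Tbx5 ratio of 269 in mesenchyme was 487 in cells with over 3000 detected genes and 804 in the distal gate (3 hindlimb UMIs). The Tbx4 difference of 7.46-fold was 9.37 with median-of-ratios scaling, 5.71 in the distal gate, 5.21 in the proximal gate and 6.29 against the Inv1 hindlimb. Pitx1, at 505-fold, was at 244 in the proximal gate and 258 with the Inv1 forelimb. The Hoxc10 lower bound of 385 was 260 in cells with over 3000 genes, 432 with median-of-ratios scaling, 409 without ribosomal protein and haemoglobin genes, 114 and 31.5 in the distal and proximal gates and 264 with the Inv1 hindlimb, and with the Inv1 forelimb, where 1 UMI was counted, the ratio was 1767. The AER share ratio of 0.614 was 1.35 in cells with over 3000 genes.

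In mesenchyme the 121 genes past 2-fold in the forelimb became 25 with median-of-ratios scaling (all 25 among the 121), 506 and 11 with pseudocounts of 1 and 50 CPM, 70 at a mean of 50 CPM or more, and 40 and 73 with the Inv1 forelimb or hindlimb. The 13 hindlimb genes became 2 with a pseudocount of 50 CPM, 2 at a mean of 50 CPM and 8 with the Inv1 hindlimb. In muscle the 310 became 95, 994, 23, 141, 125 and 171 in that order, and the 13 hindlimb genes 31 with median-of-ratios scaling, 31 and 1 with pseudocounts of 1 and 50 CPM and 4 at a mean of 50 CPM.

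Thinning each cell to 4000 UMIs took the share of cells with a UMI from 57% to 37.4% for Tbx5 in the forelimb, from 7.12% to 3.15% and 41.6% to 21.6% for Tbx4 in forelimb and hindlimb, from 0.350% to 0.118% and 75.0% to 52.3% for Pitx1, and from 30.9% to 17.1% for Hoxc10 in the hindlimb.

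List medians (log2) under median-of-ratios scaling were 0.37 for distal, −0.32 for proximal, 0.64 for chondrogenic, 0.59 for tendon, 0.48 for HoxD, −1.83 for HoxC and 0.38 for BMP genes and −0.14 for cell cycle genes in mesenchyme, which changed sign from 0.16, and 0.23 for myogenic and −0.20 for cell cycle genes in muscle. That scaling took the all-gene median from 0.24 to −6.5e-05 in mesenchyme and from 0.24 to 0 in muscle. Cell cycle genes in mesenchyme thus lay below the all-gene median with both scalings. Without ribosomal protein and haemoglobin genes they were −0.10 for proximal, −1.99 for HoxC and 0.083 for cell cycle genes. With the Inv1 forelimb they were 0.25 for distal, −0.41 for proximal, 0.44 for chondrogenic, 0.70 for tendon and 0.035 for cell cycle genes in mesenchyme, and 0.92 for myogenic and −0.12 for cell cycle genes in muscle.

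Of 527 alternative values of named genes, 396 moved by less than counting error, 129 moved by more without reversing, and 2 reversed. The 129 include moves toward 0 and away from it. In the distal gate, log2 ratios went from −1.04 to −0.11 for Meis1 and from −1.23 to −0.26 for Irx3. The ratio of E130114P18Rik went from −1.11 to −1.34 there. The reversed values were E130114P18Rik in the proximal gate (0.38) and Ptn in endothelium (−0.073) once the 3 and 1 cells with 8 or more mesenchyme markers were left out.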
